A study of Homo sapiens with 4 samples.

Results

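Messenger RNA of 33 DNA repair and checkpoint genes was followed in TET1 knockdown and control cells of 2 human lung cancer lines. The 33 genes were taken by symbol from the probe table, which gave 69 of its 47321 probes, and MRE11 carries its older symbol MRE11A there. The groups were A549 cells given siRNA against TET1, vehicle-treated A549 parent cells, H1299 cells given the same kind of siRNA and vehicle-treated H1299 parent cells, with 1 Illumina bead array each. Because the controls received vehicle, effects of TET1 loss and of siRNA delivery cannot be told apart. No group had a replicate, so a difference within a line has no measured error and no test. TET1 is a dioxygenase that oxidises methylated cytosine in DNA. A549 is a lung adenocarcinoma line, while H1299, of non-small cell origin, came from a lymph node metastasis.

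Cells repair double-strand breaks either by homologous recombination, which copies the sister chromatid, or by end joining, which ligates the ends directly. The MRE11, RAD50 and NBN complex and the kinases ATM and ATR sense the damage, CHEK1 and CHEK2 pass the signal to the cell cycle, and the Fanconi anaemia proteins handle crosslinks between DNA strands. Mismatch repair corrects replication errors, and base excision repair removes damaged or unwanted bases. In base excision repair TDG can also remove the oxidised bases that TET enzymes make. Transcription of many of these genes peaks around S phase under E2F control.

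Because TET1 acts on CpG sites and E2F factors regulate many of these genes, their promoters were examined in RefSeq sequence of GRCh38.p14, from 250 bases before to 50 after each gene's start. A promoter was found for 30 of the 33 genes, all but FANCI, NBN and XRCC5. A single annotated start was read per gene, for BRCA1 with the window chr17:43170278-43170577, and other starts a gene may have were not examined. The window held a median of 27 CpG sites in these genes (range 12 to 39), against 14 over 27305 promoters and 26 over 9578 promoters of genes detected on any array. CHEK1 had the fewest and MSH6 the most. An E2F-like motif of 7 letters, TTGGCGC or TTCGCGC or TTCCCGC or TTGCCGC on either strand with overlapping matches counted, was found in 17 of 30 (56.7%). It was found in 13.1% of all promoters and in 20.6% of those of detected genes. CCAAT was found in 53.3% of the 30 promoters, against 35.7% of all, and TTTGAA, the letters of the cell cycle genes homology region, in 6.67% against 15.4%, while promoters of detected genes held them in 37.2% and 9.91%. These are matches of letters and do not show binding or methylation. The first pair of promoters below belongs to genes that were higher in the A549 knockdown and lower in the H1299 knockdown than in their controls, and the second pair to genes that read the other way in both lines. Capitals mark the E2F-like matches. LIG1 lies at chr19:48170295-48170594 on the minus strand, UNG at chr12:109097347-109097646 on the plus strand, FANCD2 at chr3:10026187-10026486 on the plus strand and RAD54L at chr1:46247438-46247737 on the plus strand, all printed 5′ to 3′ along the gene.
LIG1: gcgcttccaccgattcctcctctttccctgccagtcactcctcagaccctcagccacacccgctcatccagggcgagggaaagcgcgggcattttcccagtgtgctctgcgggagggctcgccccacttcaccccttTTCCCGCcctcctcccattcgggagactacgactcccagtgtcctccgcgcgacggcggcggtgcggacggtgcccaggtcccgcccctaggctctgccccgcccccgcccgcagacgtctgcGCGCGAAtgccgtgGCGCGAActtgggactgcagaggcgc
UNG: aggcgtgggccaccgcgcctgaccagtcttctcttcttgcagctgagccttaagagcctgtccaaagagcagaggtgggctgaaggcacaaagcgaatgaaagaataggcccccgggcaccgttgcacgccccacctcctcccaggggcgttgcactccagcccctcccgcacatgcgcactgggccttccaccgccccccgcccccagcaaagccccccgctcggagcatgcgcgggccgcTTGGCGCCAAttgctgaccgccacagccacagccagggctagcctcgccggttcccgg
FANCD2: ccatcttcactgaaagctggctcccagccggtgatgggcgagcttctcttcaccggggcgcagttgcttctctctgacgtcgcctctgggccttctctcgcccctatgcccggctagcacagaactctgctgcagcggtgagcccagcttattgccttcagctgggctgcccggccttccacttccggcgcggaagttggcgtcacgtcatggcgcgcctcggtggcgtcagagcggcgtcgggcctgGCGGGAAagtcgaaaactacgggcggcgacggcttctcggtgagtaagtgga
RAD54L: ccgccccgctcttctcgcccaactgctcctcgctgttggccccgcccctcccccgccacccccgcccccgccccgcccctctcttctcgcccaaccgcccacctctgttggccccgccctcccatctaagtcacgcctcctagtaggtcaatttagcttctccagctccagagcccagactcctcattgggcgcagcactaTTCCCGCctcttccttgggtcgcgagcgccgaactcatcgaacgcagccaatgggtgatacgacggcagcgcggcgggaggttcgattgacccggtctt

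In these windows LIG1 had 31 CpG sites and 3 E2F-like matches, and UNG had 22 CpG sites and 2 matches that overlap on opposite strands. FANCD2 had 29 CpG sites and RAD54L 28, each with 1 match. An E2F-like match stood in 3 of the 6 promoters of genes higher in the A549 knockdown and lower in the H1299 knockdown, and in 9 of the 14 of genes with the reverse pattern, so both patterns included promoters with and without it.

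The arrays detected 17107 of the 47321 probes in the A549 knockdown, 13980 in the A549 control, 14417 in the H1299 knockdown and 16883 in the H1299 control, at a detection p-value under 0.01. On the TET1 probe ILMN_3247163 the log2 normalized signal was 5.19 in the A549 knockdown and 7.18 in the A549 control, and 5.90 in the H1299 knockdown and 6.83 in the H1299 control. It was detected in the controls alone, which puts the decrease at 3.14-fold or more in A549 and 1.74-fold or more in H1299. A second TET1 probe, ILMN_1741056, was detected in the H1299 control only. Of 7 lung epithelial markers 4 were detected in both A549 samples and 1, KRT8, in both H1299 samples, and NKX2-1 and SFTPC were detected on none. Of 5 mesenchymal markers 3 or 4 were detected in A549 and 2 or 3 in H1299, with VIM and CDH2 on all 4 arrays. No endothelial marker was detected, and of 5 blood cell markers CD14 was detected on all 4 arrays and HBB on 1. The pan-leukocyte marker PTPRC was detected on none.

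Of the 69 probes, 38 were detected on all 4 arrays, 8 on 1 to 3 arrays and 23 on none. At gene level, 27 of the 33 had a probe detected on all 4 arrays. BRCA2, FANCA, ATR and RAD50 were detected on 1 to 3 arrays, and BRIP1, a helicase that binds BRCA1, and OGG1, the glycosylase for oxidised guanine, on none. A gene is given here by its brightest probe over the arrays, which for FANCA was undetected throughout, and a change is knockdown minus control on the log2 scale of normalized signal. A gene was counted as past 2-fold in a line where its measured signals differed by at least that much and either array of the line detected it.

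In A549, 3 of 28 detected members were at least 2-fold higher in the knockdown (10.7%, against 11.1% of 13228 detected genes) and 0 were lower, against 8.8% of genes. The 3 were LIG1, XRCC3 and XRCC5. In H1299, 2 of 30 members were at least 2-fold higher in the knockdown (6.67%, against 18.6% of 13208 genes), BRCA1 and ATR, and 6 were lower (20%, against 14.8%), LIG1, XRCC3, XRCC5, NBN, RAD50 and UNG. The members' share was near that of all genes for higher genes in A549, below it for lower genes in A549 and for higher genes in H1299, and somewhat above it for lower genes in H1299. With arrays centred on their medians in place of quantile normalization, the H1299 split was 6 higher and 5 lower (20% and 16.7%, against 21.2% and 14.7% of all genes). In A549 it was then 4 higher and 0 lower (14.3% and 0%, against 21.4% and 1.28%), so the gaps for higher genes in H1299 and for lower genes in A549 nearly closed under that scaling. The median change of the members was -0.13 in A549, as it was for all detected genes, and 0.44 in H1299, against 0.28 for all. When the detected probes of each gene were averaged, the H1299 median was -0.46 for the members and 0.17 for all genes, so the members then lay below all genes and not above them. Median centring moved the median of all genes to 0.35 in A549 and 0.39 in H1299, and that of the members to 0.31 and 0.71.

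**Figure D1:**
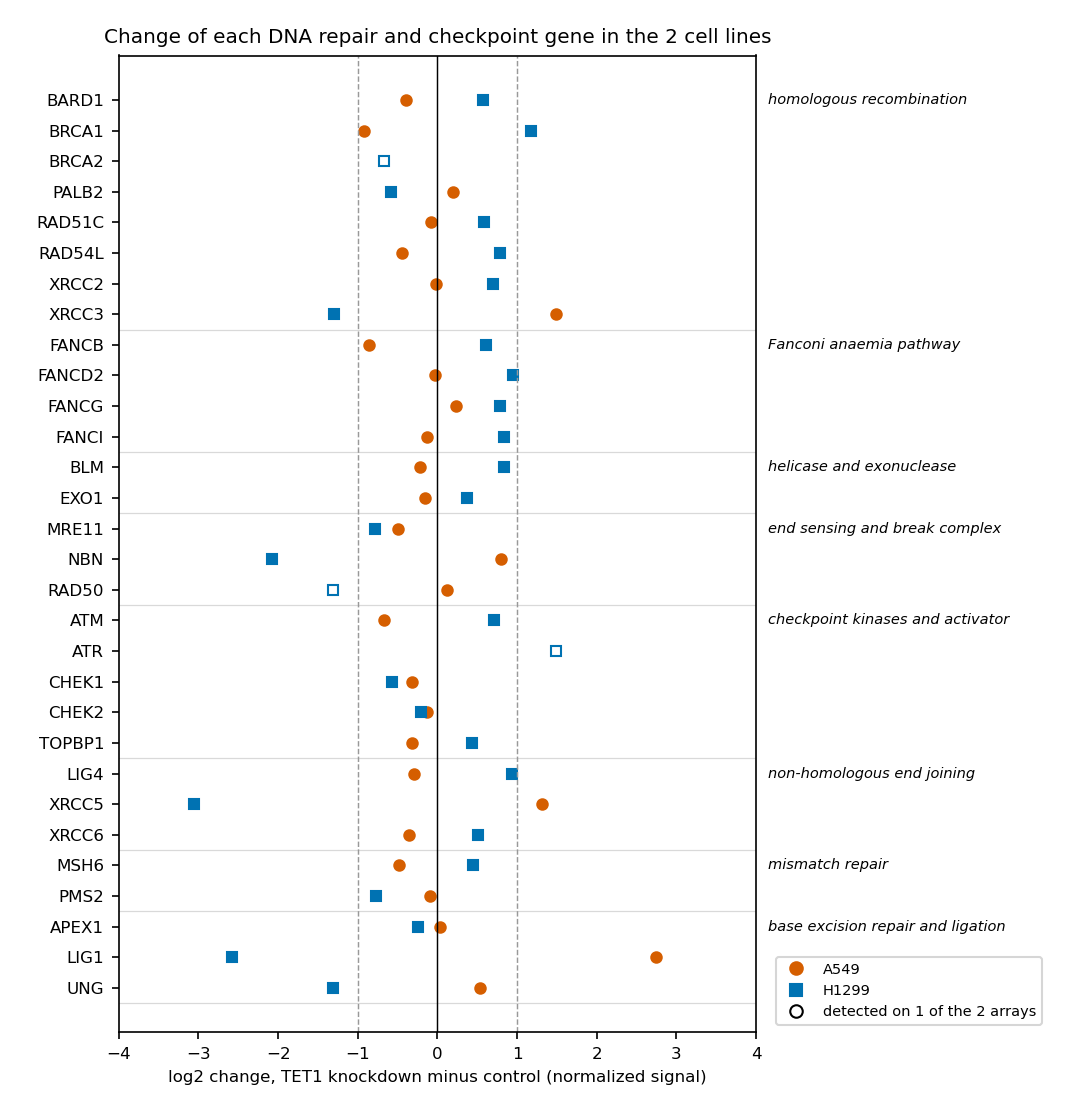
Log2 change of normalized signal, TET1 knockdown minus control, for the 30 members whose representative probe was detected, grouped by role, with A549 as circles, H1299 as squares, open where 1 of the line's 2 arrays detected the probe, and dashed lines at 2-fold. LIG1, XRCC3 and XRCC5 lie beyond the right line in A549 and beyond the left line in H1299, while most other members stay within 2-fold.

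LIG1 had the largest change of the members in A549. It seals nicks in base excision repair and joins Okazaki fragments in replication. Its single probe read 9.61 in the A549 knockdown and 6.87 in the A549 control, and 6.04 in the H1299 knockdown and 8.62 in the H1299 control. LIG1 was thus high in the A549 knockdown and the H1299 control and low on the other 2 arrays, a difference of 6.68-fold upward in A549 and 5.95-fold downward in H1299. XRCC5, the larger Ku subunit that caps broken ends for end joining, read 9.99 in the A549 knockdown and 8.68 in the A549 control, and 7.77 in the H1299 knockdown and 10.83 in the H1299 control. That made it 2.49-fold higher in the A549 knockdown and 8.34-fold lower in the H1299 knockdown, the largest change of a member in H1299. XRCC3, a recombination protein that helps resolve joined DNA strands, read 8.52 in the A549 knockdown and 7.04 in the A549 control, and 8.38 in the H1299 knockdown and 9.67 in the H1299 control, which is 2.8-fold higher and 2.45-fold lower. On brightest probes these 3 were the only members past 2-fold in opposite directions in the lines (10.7% of 28, against 12.8% of 11751 genes detected in both), and 0 were past 2-fold the same way in both, against 0.153% of genes. Dimmer probes of XRCC6, APEX1, EXO1 and, in the reverse directions, BRCA1 also passed 2-fold in opposite directions. With the mean of detected probes the count was 4. Each of LIG1, XRCC5 and XRCC3 was measured by 1 probe, and on the authors' deposited values none passed 2-fold in both lines. MCM5 and MCM7, replication helicase subunits of the cycling cell markers, were high and low on the same arrays. MCM5 differed by 2.18 in A549 and -2.53 in H1299, and MCM7 by 1.76 and -1.57. MCM2, at 0.70 and -0.84, and CCNE2, at 0.22 and -2.35, read the same way, and PCNA did so weakly, at 0.05 and -0.32. On their brightest probes E2F1, at -0.39 and 0.92, MCM6, at -0.41 and 0.19, and MCM4, at -0.34 and 0.06, did not follow them. MCM3 differed by -0.06 and -0.50, and TOP2A and CCNB1 stayed within 0.11 of 0 in both lines. The dimmer probes ILMN_1806818 of MCM3 and ILMN_2412860 of MCM4 read as MCM5 did, the latter detected in the A549 knockdown and the H1299 control alone. Of the 12 cycling cell markers 3 were at least 2-fold higher and 0 lower in A549, and 0 higher and 4 lower in H1299. Their summed signal was 48800 in the A549 knockdown and 45200 in the A549 control, and 41000 in the H1299 knockdown and 55600 in the H1299 control, and the proliferation marker MKI67 was detected in the A549 knockdown and the H1299 control alone. The part of cell cycling in the repair gene values was not tested, and fewer cycling cells and less RNA per cell cannot be told apart in bulk RNA.

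**Figure D2:**
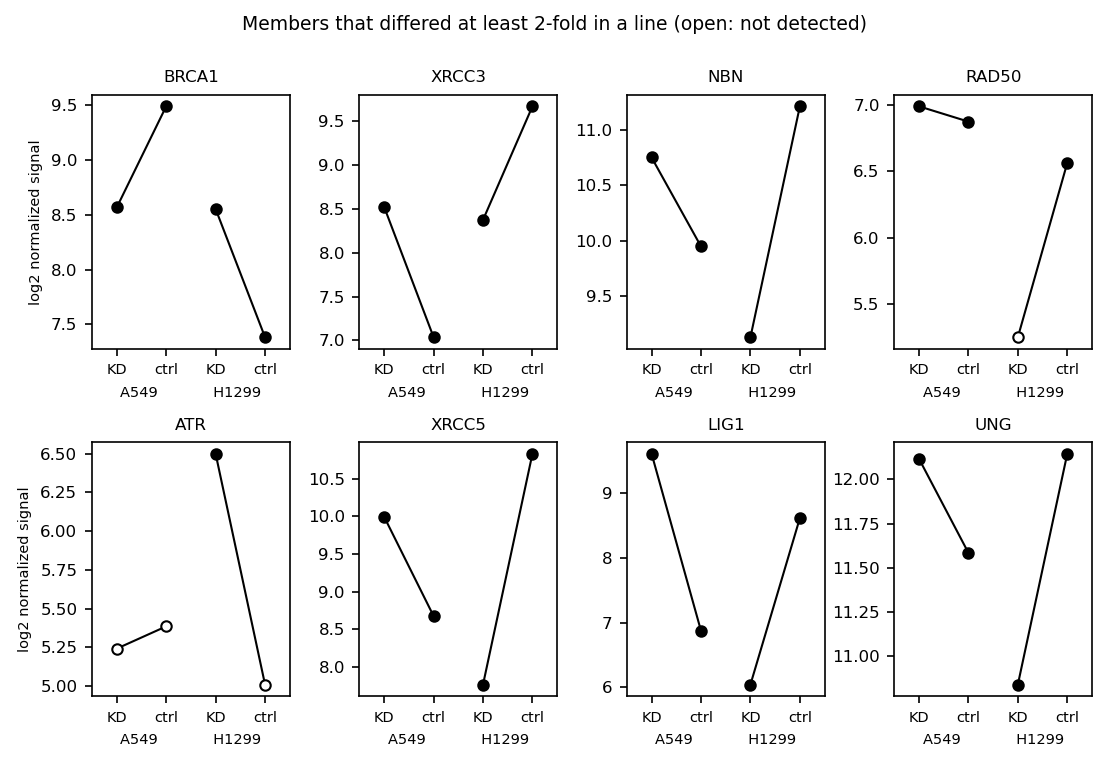
Log2 normalized signal of the 8 members past 2-fold in a line, for A549 knockdown (KD) and control (ctrl) and then H1299 knockdown and control, 1 array each, with open points undetected and y axes differing between panels. For LIG1, XRCC3, XRCC5, NBN and UNG the knockdown point lies above the control in A549 and below it in H1299, and BRCA1 is the reverse.

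Of the recombination genes, 2 of 7 read higher in the A549 knockdown and 5 of 8 in the H1299 knockdown, where 42.3% and 61.5% of all genes did. BRCA1, which directs broken ends into recombination, read 8.57 in the A549 knockdown and 9.49 in the A549 control, and 8.55 in the H1299 knockdown and 7.38 in the H1299 control. The knockdown was thus 1.9-fold below its control in A549 and 2.25-fold above it in H1299, so the 2 knockdown samples were nearly level and the controls lay apart on either side. The H1299 difference fell below 2-fold without background correction, at 0.78, and on the deposited values, at 0.50. A second BRCA1 probe, ILMN_2311089, gave 2.16-fold lower and 2.73-fold higher, and the other detected probe, ILMN_1771065, gave 2.29-fold lower and 1.34-fold higher. BARD1, the partner of BRCA1 in its ubiquitin ligase, differed by -0.40 in A549 and 0.57 in H1299. RAD54L, a motor protein of strand pairing, differed by -0.45 and 0.79, and the recombination mediators RAD51C and XRCC2 by -0.08 and 0.58 and by -0.01 and 0.70. PALB2, which links BRCA1 to BRCA2, went against these, at 0.20 and -0.59. BRCA2, a central mediator of recombination, was detected in the H1299 control only and its signal there, 5.64, was too close to background for a fold.

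Of the 6 Fanconi anaemia genes, 4 were detected on their brightest probe. FANCD2, which is ubiquitinated at crosslinks, read 10.76 in the A549 knockdown and 10.80 in the A549 control, and 11.18 in the H1299 knockdown and 10.23 in the H1299 control, a change of -0.04 in A549 and 0.95 in H1299. A second, dimmer FANCD2 probe, ILMN_1712122, gave -0.50 in A549 and just passed 2-fold upward in H1299. Its partner FANCI differed by -0.13 and 0.83. FANCB and FANCG, subunits of the core ligase complex, differed by -0.86 and 0.62 and by 0.23 and 0.79. These 4 read higher in the H1299 knockdown, between 0.62 and 0.95 and each under 2-fold, in a line where 61.5% of all genes read higher. FANCA, another core subunit, was detected on a single probe, ILMN_1682747, which read 5.98 in the H1299 control and 4.84, undetected, in the H1299 knockdown. The lowest detected signal of the H1299 knockdown was 6.03, so neither a fold nor a direction can be given for FANCA. Of 7 further Fanconi anaemia genes detected in H1299, 5 read higher in the knockdown, while FANCL, the ubiquitin ligase of the core complex, and the nuclease FAN1 were 2.21-fold and 2.54-fold lower. BLM, the helicase that dissolves recombination intermediates, differed by -0.22 and 0.84. EXO1, an exonuclease of end resection and mismatch repair, differed by -0.15 and 0.37.

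On their brightest probes the 3 genes of the break-sensing complex read lower in the H1299 knockdown. NBN, its signalling subunit, read 10.75 in the A549 knockdown and 9.95 in the A549 control, and 9.13 in the H1299 knockdown and 11.21 in the H1299 control, 1.74-fold higher and 4.23-fold lower. A second NBN probe, ILMN_2358041, read the other way, by -0.83 in A549 and 0.79 in H1299, and the mean of both was -0.65 in H1299. RAD50, the ATPase of the complex, read 6.99 and 6.87 in the A549 knockdown and control, and 5.25 and 6.56 in the H1299 knockdown and control. It was undetected in the H1299 knockdown, which puts the decrease there at 1.45-fold or more. Its measured H1299 difference was -1.31 and only -0.135 on the deposited values. The nuclease MRE11 differed by -0.50 and -0.78 and was 1 of 4 members that read lower in both lines. Its other detected probes, ILMN_1658636 and ILMN_1760802, were detected in the H1299 control only.

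Of the checkpoint genes, CHEK1, the effector kinase downstream of ATR, read 9.43 in the A549 knockdown and 9.75 in the A549 control, and 9.75 in the H1299 knockdown and 10.32 in the H1299 control, a change of -0.32 and -0.57. CHEK2, the effector of ATM, differed by -0.14 and -0.20. Both read lower in the 2 lines, though their A549 signs turned with median centring, and that of CHEK2 also with the mean of detected probes. ATM itself, the kinase activated by double-strand breaks, differed by -0.67 and 0.71, and TOPBP1, the activator of ATR, by -0.32 and 0.44, its A549 sign also turning with median centring. The 4 members detected in A549 thus read lower in the knockdown by quantile normalization, where 42.3% of all genes read higher, whereas 9 of 13 further checkpoint genes read higher there (median 0.45). ATR was detected in the H1299 knockdown alone, at 6.50 against 5.01 in the H1299 control, which puts the increase at 1.92-fold or more. Its measured difference, 1.49, was 0.17 on the deposited values. CDKN1A, an inhibitor of cyclin-dependent kinases, differed by -0.47 and 2.44.

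In end joining, LIG4, the ligase of that pathway, differed by -0.29 and 0.94, and XRCC6, the smaller Ku subunit, by -0.35 and 0.51. In mismatch repair MSH6, which recognises base mismatches, differed by -0.48 and 0.45, and PMS2, its downstream endonuclease partner, by -0.09 and -0.77. In base excision repair UNG, the uracil glycosylase, read 12.12 in the A549 knockdown and 11.58 in the A549 control, and 10.84 in the H1299 knockdown and 12.14 in the H1299 control, 1.45-fold higher and 2.47-fold lower. With median centring the H1299 difference of UNG was -0.93. APEX1, the endonuclease that cuts at abasic sites, differed by 0.03 and -0.24. All 3 detected genes of the base excision group, with LIG1, read higher in the A549 knockdown and lower in the H1299 knockdown, though APEX1 turned sign in H1299 with median centring. The 13 further base excision genes detected did not share this, with 5 higher in A549 (median -0.08) and 9 higher in H1299 (median 0.24).

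Of 28 members detected in both lines, 15 read lower in the A549 knockdown and higher in the H1299 knockdown, 8 the reverse, 4 lower in both (MRE11, CHEK1, CHEK2 and PMS2, whose A549 signs turned with median centring) and 1, FANCG, higher in both. Opposite signs thus made up 82.1% of members and 79.1% of 11751 genes, so the members' share lay near that of all genes. The arrays that detected fewer probes, A549 control and H1299 knockdown, are the control in A549 and the knockdown in H1299, so whatever sets these 2 arrays apart enters the changes with opposite signs. The part of such a difference, RNA quality or exchanged arrays included, in the knockdown changes was not tested. The brighter TET1 probe read lower in the knockdown in both lines, as the labels say, though neither knockdown array detected it. With median centring 14 of the 28 A549 signs turned and the shares were 57.1% and 60.4%. Across 38 member probes detected on all 4 arrays, Pearson's r between the changes in the lines was -0.82, against -0.75 across 11894 such probes. Probes of a gene share their RNA and each change rests on the same 2 arrays, so this is a description.

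**Figure D3:**
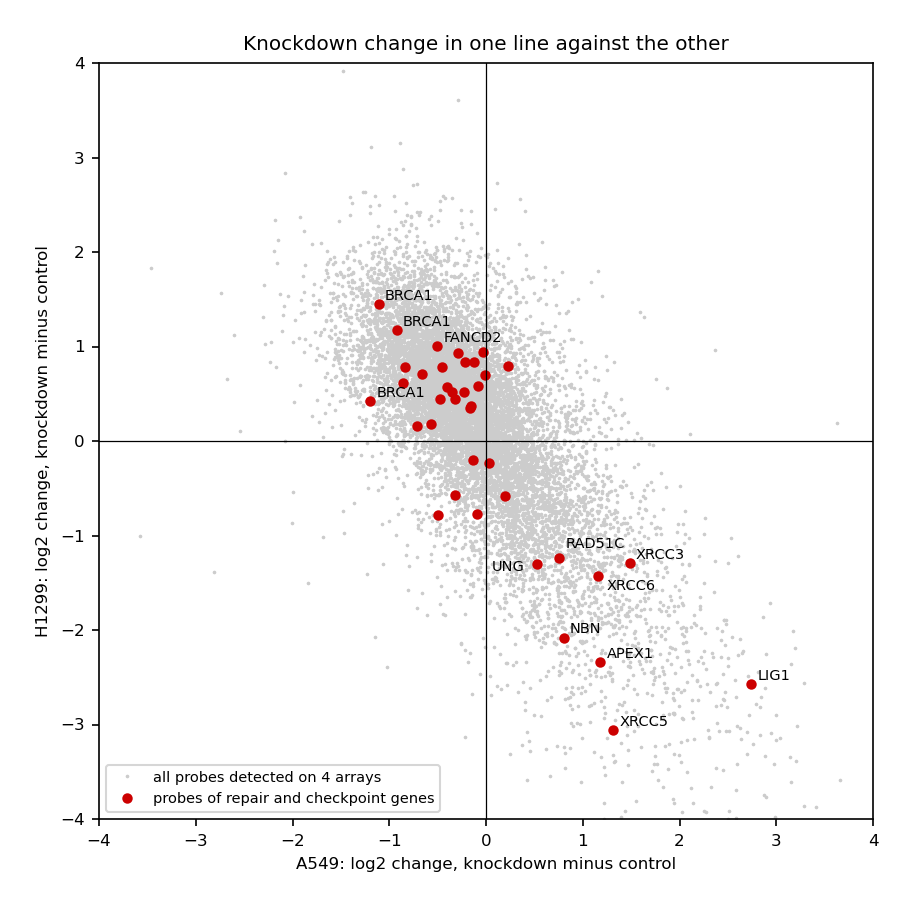
Log2 change, TET1 knockdown minus control, in A549 (x) and H1299 (y) for the 38 member probes detected on all 4 arrays (red) over all 11894 such probes (grey, a few beyond the axes not shown), with probes past 2-fold in a line named. Members run along the same descending band as the other probes (r = -0.82 and -0.75), with LIG1 and XRCC5 toward its lower right end.

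Different probes of a gene did not always read alike. For 9 members at least 2 probes were detected on all 4 arrays, and in 3 of these, RAD51C, XRCC6 and NBN, the probes disagreed in sign in a line (33.3%, against 56.4% of 1680 genes with several such probes). The XRCC6 probe ILMN_1743097 read 11.06 in the A549 knockdown and 9.90 in the A549 control, and 9.80 in the H1299 knockdown and 11.23 in the H1299 control, a change of 1.16 and -1.43 where the brighter probe gave -0.35 and 0.51. The RAD51C probe ILMN_1760635 differed by 0.76 and -1.24, against -0.17 and 0.35 on ILMN_2238928. Probes that disagreed with the brightest one thus read as LIG1 did, high in the A549 knockdown and the H1299 control. For NBN it was the brightest probe that read this way.

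APEX1 agreed in sign and not in size, its second probe ILMN_2319344 differing by 1.18 and -2.34. Of probes detected on fewer arrays, EXO1 ILMN_2351916 was 2.14-fold higher in A549 and 3.21-fold or more lower in H1299. CHEK2 ILMN_2395240 was 5.12-fold or more lower in H1299, and in A549 it was detected in the knockdown alone, too dim there for a fold. The probes of BRCA1, FANCB, FANCD2, LIG4 and ATM agreed in sign in both lines. The second probes gave -0.23 and 0.52 for FANCB, -0.71 and 0.16 for LIG4 and -0.56 and 0.18 for ATM. Which transcript forms the probes match is not given in the sources used here, and the cause of the disagreement was not tested.

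**Figure D4:**
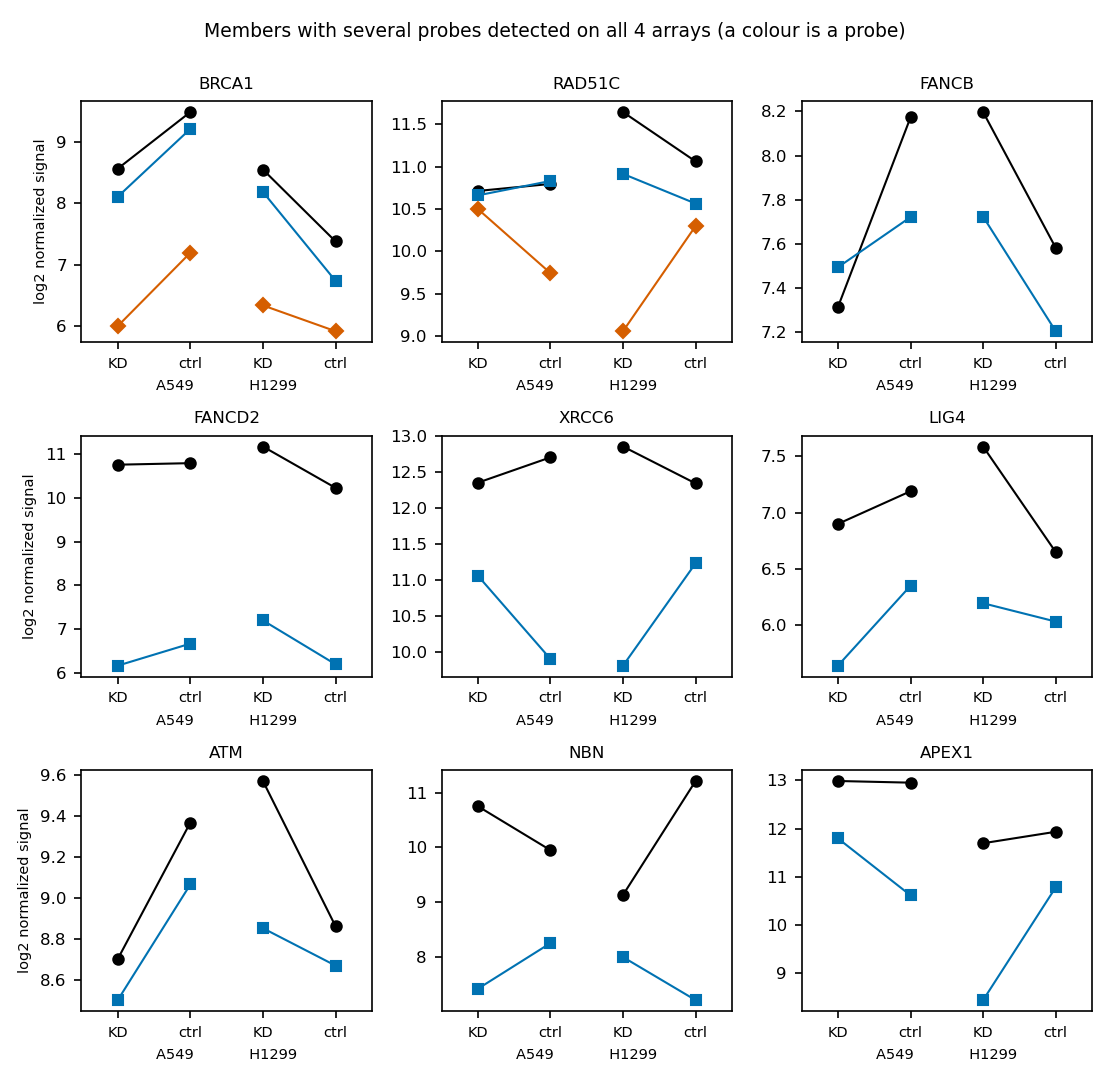
Log2 normalized signal of each probe of the 9 members with several probes detected on all 4 arrays, for A549 knockdown (KD) and control (ctrl) and then H1299 knockdown and control, a colour and symbol for each probe and y axes differing between panels. Lines of a gene run in parallel directions for BRCA1, FANCB, FANCD2, LIG4, ATM and APEX1 and cross direction for RAD51C, XRCC6 and NBN.

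Across both lines, limma with cell line as a block called 0 of 41 member probes detected on at least 2 arrays, against 1 of 17002 probes (0.00588%), at an adjusted p under 0.05. At an unadjusted p under 0.05, limma gave 0 member probes and 20 of all probes, and the lowest unadjusted p of a member was 0.136, for the CHEK2 probe ILMN_2395240. The error of that test is the disagreement of the lines, drawn by limma to a trend with intensity over all fitted probes. For member probes the standard error was 0.51 to 1.13 on the log2 scale, and it followed intensity more than a probe's own disagreement. LIG1, at 2.74 in A549 and -2.57 in H1299, had 1.12. The CHEK2 probe ILMN_2395236, at -0.14 and -0.20, had 1.05. Over all fitted probes, the SD of the part of the change that opposed between the lines was 1.01, against 0.404 for the part they shared. FANCG, the member higher in both lines, averaged 0.51 over the lines (limma SE 0.78), CHEK1 -0.45 (0.83) and MRE11 -0.64 (1.04). None of them was called by limma. In A549 and H1299 FANCG differed by 0.23 and 0.79, CHEK1 by -0.32 and -0.57 and MRE11 by -0.50 and -0.78. These SEs come from the trend over all probes and do not give the spread of these genes between the lines.

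Between the control cells, 7 of 29 members were at least 2-fold higher in H1299 than in A549 (24.1%, against 21% of 13716 genes) and 4 were lower (13.8%, against 23.5%). Higher in the H1299 control were XRCC3 (6.21-fold), XRCC5 (4.45-fold), LIG1 (3.35-fold), PMS2 (2.59-fold), NBN (2.4-fold), CHEK2 (2.21-fold) and BRCA2, which was undetected in A549. The BRCA2 signal of 5.64 in the H1299 control lies under 6.14, the lowest detected signal of the A549 control, so its fold cannot be bounded, and without it the count is 6 of 29 (20.7%). Lower were BRCA1 (4.32-fold), FANCI (2.83-fold), BLM (2.12-fold) and APEX1 (2.03-fold). These ratios use the same control arrays as the knockdown changes. In the knockdown cells LIG1, XRCC5 and NBN were instead lower in H1299 than in A549; their order between the lines depended on which pair of arrays was read.

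Other genes of these pathways were read in the same way. Of 82 further repair and checkpoint genes on the array, 71 were detected in A549, where 7 were at least 2-fold higher in the knockdown (9.86%) and 0 lower, and 73 in H1299, where 11 were higher (15.1%) and 14 lower (19.2%). Set against all genes, at 11.1% and 8.8% in A549 and 18.6% and 14.8% in H1299, the share of lower genes in A549 stood farthest from its background. That 8.8% depends on the scaling, as it was 1.28% with median centring and 0.877% on the deposited values. The further genes were not counted under those settings. Signs were opposite in 60 of 70 detected in both lines (85.7%, against 79.1% of all genes). The 7 include H2AX, POLM and POLL, for which the A549 arrays gave no fold or bound. Among genes with a fold or a bound on their brightest probe, the largest in A549 was MAD2L2, a subunit of translesion polymerase zeta (3.54-fold higher). Next came the helicase RECQL4 (2.64-fold or more higher), TP53BP1, which favours end joining (2.06-fold higher), and RAD9A, a checkpoint clamp subunit (1.84-fold or more higher). Some dimmer probes went further. PRKDC ILMN_2334121 was 7.76-fold or more higher in A549 and 26.2-fold or more lower in H1299, where the brightest PRKDC probe differed by -0.31 and 0.16. RPA1 ILMN_1795719 was 5.6-fold higher and 8.41-fold lower, against 0.11 and 0.22 on its brightest probe. On the lower side in A549, the Fanconi anaemia genes FANCE and FANCC were 1.99-fold and 1.89-fold lower, and XPA, a damage-binding protein of nucleotide excision repair, was 1.84-fold lower. In H1299, WEE1, the kinase that restrains entry into mitosis, was 9.04-fold lower, the histone variant gene H2AX 5.12-fold or more lower, RECQL4 2.49-fold or more lower, and REV3L, the catalytic subunit of polymerase zeta, 1.59-fold or more lower. Higher in the H1299 knockdown were ERCC5, a nuclease of nucleotide excision repair (2.96-fold), MGMT, which reverses guanine alkylation (2.66-fold), and DCLRE1C, the end joining nuclease Artemis (2.45-fold). RECQL4 thus was higher in the A549 knockdown and among the lowest in the H1299 knockdown. MAD2L2, TP53BP1 and RAD9A were also lower in the H1299 knockdown, by 2.98-fold, 2.49-fold and 1.55-fold.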

How the data were processed

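The authors deposited, per the file headers, the average bead intensity of every probe on each of the 4 arrays without normalization between them, and beside it a detection p-value. A second table, which the authors deposited, holds log2-like values made with lumi, per the submitters' processing notes, and its transformation is not given in the sources used here. Background was removed with the neqc function of limma 3.58.1 in R 4.3.3, which here estimates the negative controls through the detection p-values, adds an offset of 16, applies quantile normalization and takes log2. The number of arrays limits precision. The labels call the molecule total RNA, while their extraction text describes DNA.

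Older symbols were replaced by current ones from RefSeq (GRCh38.p14), and the brightest probe stood for each of 30908 genes. A fold with 1 side undetected is a bound, set by the dimmest detected probe of that array, or by the undetected signal where that is higher. The two-sided limma fit over both lines used every one of 17002 probes that 2 or more arrays detected. It had 1 residual degree of freedom, drew each probe's variance to a trend with intensity over all probes and was adjusted by Benjamini-Hochberg. It was tried on simulated data with independent noise on each array. Because the changes here mostly opposed between the lines, that trial does not show how the fit behaves on these data. The labels name no separate cultures, so the p-values do not measure a spread between cultures. They rest more on the trend with intensity than on a probe's own spread between these samples.

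Members and lists were chosen with earlier results of these data known. By the rule for named genes, all members were reported with every detected probe, values on each array were given for members past 2-fold in a line, and of the other repair genes the 4 largest changes each way per line were named, except results not reported here. FANCD2, CHEK1 and the disagreeing XRCC6 probe were given in full, and FANCL, FAN1 and single cycling cell markers named, after their values were seen. Tried as alternatives were an offset of 50, median centring, no background correction, a detection p under 0.05, the mean of detected probes, the deposited values, and for limma also no block for cell line, no detection filter and 1 probe per gene. Figures were drawn with matplotlib 3.10.9.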

Additional observations from a re-analysis of the deposited data

Results flagged for a closer look

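LIG1, XRCC3 and XRCC5 differed by more than 2-fold in opposite directions in the 2 lines. In the A549 knockdown LIG1 differed by 2.74, XRCC3 by 1.49 and XRCC5 by 1.32 on the log2 scale relative to the A549 control. In the H1299 knockdown LIG1 differed by -2.57, XRCC3 by -1.30 and XRCC5 by -3.06 relative to the H1299 control. With 1 array per group, the difference between the lines was not tested.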

How the results depend on the processing

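Under the 6 alternatives for the fold counts, no change past 2-fold in a member turned direction, though some fell below 2-fold. LIG1 ranged from 1.34 to 3.39 in A549 and from -2.69 to -0.81 in H1299, XRCC5 from 0.97 to 1.92 and from -3.06 to -2.09, and XRCC3 from 0.58 to 2.22 and from -1.30 to -0.87. On the deposited values, 1 member was at least 2-fold higher in A549 against 3 by neqc, 0 higher in H1299 against 2, 3 lower in H1299 against 6, 3 higher in the H1299 control than in the A549 control against 7, and 0 opposed between the lines against 3, and the H1299 median was 0.26. With no background correction 0 were higher in H1299, and between the controls 4 were higher and 2 lower in H1299. Median centring gave 6 higher in H1299 and medians of 0.31 in A549 and 0.71 in H1299. An offset of 50 gave 1 higher in H1299. The mean of detected probes gave 1 lower in A549, against 0, and an H1299 median of -0.46, against 0.44. NBN then differed by -0.65 in H1299. The limma count of members was 0 under all 8 alternatives, which says nothing of stability, since 1 of 17002 probes passed at all. The cause of these differences was not tested. ATR, RAD50 and BRCA2 lie close to background, and their folds are bounds or not given.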
